A study of Mus musculus with 6 samples.

Results

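The 10 genes described here are *Tox*, *Tcf7*, *Lef1*, *Id2*, *Id3*, *Tbx21*, *Eomes*, *Prdm1*, *Bach2* and *Slamf6*, a fixed list of lymphocyte fate genes among the 31053 genes of the deposited table, and all 10 were detected. They were followed in the 14877 of 33961 cells that carry one of 7 lymphocyte labels, T cell EFF (3633 cells), T cell MEM (1179), T cells (203), T cell Naive (55), NKT (781), NK cells (4398) and ILC (4628). The cells are CD45+ cells enriched with beads from subcutaneous tumors of the mouse colon carcinoma line CT26, grown in wild-type female Balb/c mice that were 5 to 6 weeks old on arrival, and taken 5 days after treatment. The sample labels list 6 samples of tumor-infiltrating lymphocytes, 2 each of vehicle, low dose and high dose of a PD-1 GITR-L bispecific antibody. The high dose is 30 mg/kg in the labels, and the low dose is 10 mg/kg in the treatment protocol but 30 mg/kg in the sample characteristics. The paper names a further dose and an isotype control in place of vehicle, so the groups are named here only as in the sample labels. All tumors came from 1 established line in 1 mouse strain. GITR-L is the ligand of the costimulatory receptor GITR, joined here to an antibody against the inhibitory receptor PD-1.

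The table names 4 libraries, M1, M2, M5 and M6, with 3219, 3050, 4383 and 4225 cells of the lymphocyte labels. These names match no label of the 6 samples, so a library has no known treatment here. No difference between treatments and no p-value is given. Levels are given as CPM, the unique molecular identifiers (UMIs, 1 per captured transcript) of a gene per 1000000 UMIs of all genes in a label, pooled over the libraries and in each library. Libraries held 158337797 to 315577167 UMIs in all cells, and 13 barcodes of lymphocyte cells occurred in more than 1 library. Stroma was the label of 61.2%, 57.1%, 27.2% and 30.9% of all cells in M1, M2, M5 and M6, despite the enrichment for CD45.

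The labels were checked against marker genes. The 5 T cell markers *Cd3d*, *Cd3e*, *Cd3g*, *Trac* and *Trbc2* summed to 5275 CPM in T cell EFF and 5445 CPM in T cell MEM, against 419.7 CPM in NK cells. In cells labelled ILC the same markers summed to 1098 CPM and 5 NK cell markers to 1951 CPM, against 2596 CPM in NK cells, so ILC is used here as the name of a label of NK-marker-bearing cells, of which 2138 of 4628 carried a *Cd3d*, *Cd3e* or *Cd3g* UMI. In cells labelled NKT the regulatory T cell markers *Foxp3*, *Ikzf2*, *Il2ra* and *Ctla4* summed to 2527 CPM, against 748 CPM in T cell EFF, and 282 of 781 cells carried a *Foxp3* UMI. The label T cells was similar in this respect, with 2553 CPM of these markers and 9.41 CPM of *Cd8a* and *Cd8b1*. The labels came from the correlation of whole profiles with a reference, to which the 10 genes themselves contributed, so all differences between labels are descriptions.

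As background, an activated T cell keeps a memory-like, self-renewing program or takes on effector or exhausted states, and transcription factors with opposing action set this balance. TCF-1 (*Tcf7*) and LEF-1 maintain naive, memory and stem-like states, BACH2 restrains effector genes, and the surface receptor Ly108 (*Slamf6*) marks the stem-like exhausted cells. T-bet (*Tbx21*), EOMES, ID2 and BLIMP-1 (*Prdm1*) drive cytotoxic differentiation in T and NK cells, ID3 opposes ID2 in memory precursors, and TOX maintains the exhausted state of chronically stimulated CD8+ T cells.

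TCF-1 and LEF-1 bind the same DNA core, and BACH2 binds sites that AP-1 factors also use, so the 250 bases before the RefSeq start sites of the 10 genes were searched for these letters. Windows of 9 of the 10 genes were searched, all but *Tox*. Windows with a match are shown because *Lef1* and *Bach2*, like *Tcf7* and *Slamf6*, were higher in T cell Naive than in T cell EFF. A further reason is that BACH2 and BLIMP-1 act against each other. Sequences are from RefSeq, build GRCm38.p6, in the direction of the gene, with matches to the TCF and LEF core (CTTTGA or CTTTGT, either strand) or to the BACH and AP-1 site (TGANTCA, which reads as itself on the other strand) in capitals. All 3 windows lie in introns of the longer transcripts in GENCODE M21.
Lef1, start site 4, chr3:131156044-131156293, plus strand: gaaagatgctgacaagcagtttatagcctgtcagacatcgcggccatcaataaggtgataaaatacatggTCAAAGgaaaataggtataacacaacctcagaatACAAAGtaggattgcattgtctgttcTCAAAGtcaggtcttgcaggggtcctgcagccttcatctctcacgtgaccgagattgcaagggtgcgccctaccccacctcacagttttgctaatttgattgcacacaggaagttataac
Bach2, chr4:32417185-32417434, plus strand: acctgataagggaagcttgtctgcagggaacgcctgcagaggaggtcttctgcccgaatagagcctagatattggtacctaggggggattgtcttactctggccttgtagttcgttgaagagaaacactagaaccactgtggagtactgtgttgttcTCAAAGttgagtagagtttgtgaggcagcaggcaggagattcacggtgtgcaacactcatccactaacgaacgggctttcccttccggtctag
Prdm1, chr10:44458749-44458998, minus strand: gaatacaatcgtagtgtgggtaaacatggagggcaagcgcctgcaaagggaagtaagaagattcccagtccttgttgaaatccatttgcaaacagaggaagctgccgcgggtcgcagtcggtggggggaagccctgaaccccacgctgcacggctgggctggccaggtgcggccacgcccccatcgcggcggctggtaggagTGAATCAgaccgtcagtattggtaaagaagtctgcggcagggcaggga
The fourth *Lef1* window held 3 matches to the TCF and LEF core, and the *Bach2* window held 1. The other *Lef1* windows and those of *Tcf7*, *Slamf6* and the remaining genes searched held none. The core occurs in 27.6% of 32851 windows of this length, so a single match is common. How often 3 matches fall in 1 window was not counted, and no link to the levels of the genes is read from the matches. The *Prdm1* window held 1 BACH and AP-1 site, which occurs in 6.75% of windows. The T-box core (TCACAC, either strand), which T-bet and EOMES bind, occurs in 12.3% of windows and in none of these genes' windows. The counts are of transcript ends and do not show which start site was used, and a match in letters is not a bound site.

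**Figure D1:**
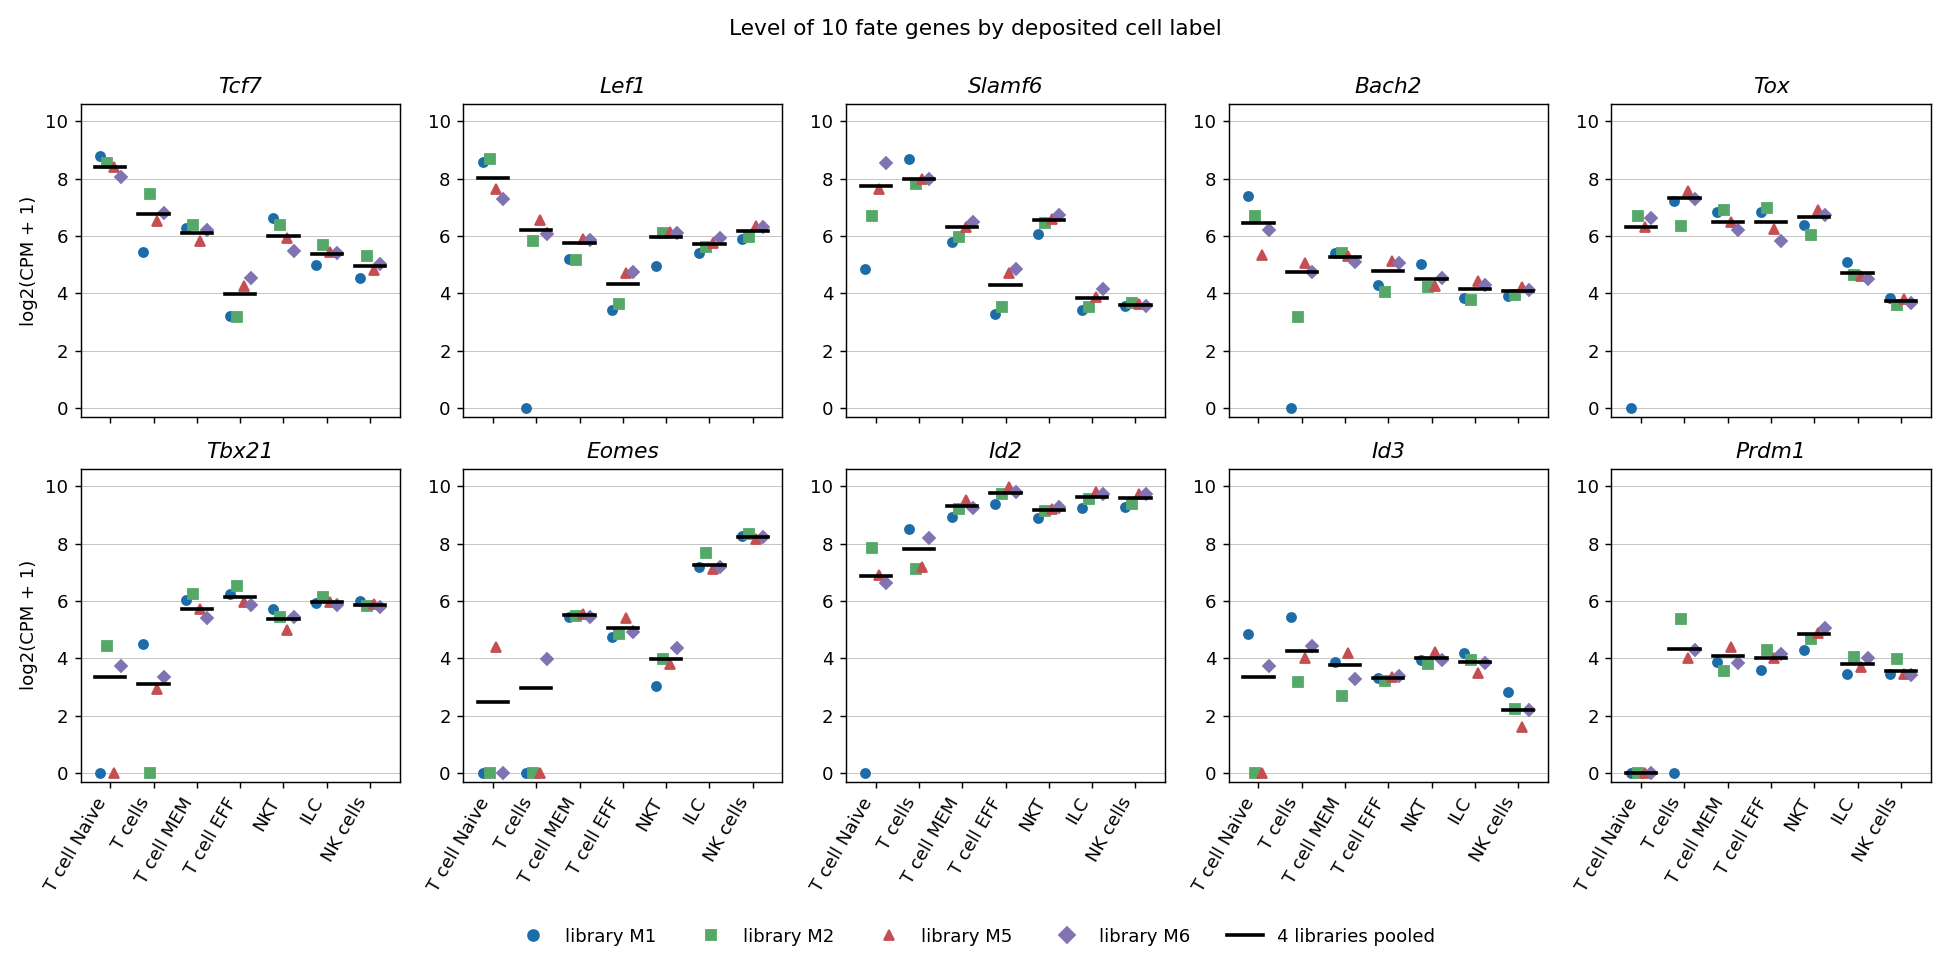
Level of each gene, as log2(CPM + 1) on the vertical axis, in the 7 lymphocyte labels on the horizontal axis, with 1 point per library and a black line for the libraries pooled. *Tcf7* and *Lef1* are lowest in T cell EFF and highest in T cell Naive, *Eomes* is highest in NK cells, and *Id2* is lowest in T cell Naive and the label T cells.

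*Tcf7* (chromosome 11, 52252371 to 52283014 of GRCm38, minus strand, GENCODE M21) had its lowest level in effector cells. In T cell EFF it had 8.27, 8.16, 18.3 and 22.4 CPM in M1, M2, M5 and M6, and 14.8 CPM pooled. In T cell MEM it had 76.2, 82.5, 56.2 and 73.7 CPM, in every library above the highest T cell EFF value. T cell Naive had 335 CPM pooled, with 267 to 442 CPM over libraries and only 73 UMIs in 55 cells, and its range lay above that of every other label. NK cells (29.8 CPM, range 22.5 to 38.4) and ILC (41.0 CPM, range 31.1 to 51.2) overlapped each other and lay above T cell EFF, NK cells by a narrow margin. The annotated gene shares its strand with Gm26551, so UMIs in the overlap cannot be assigned between them. Depth was made equal by drawing 2000 UMIs from every cell that held as many, and shallower cells were left out. A *Tcf7* UMI was then found in 3.02% of T cell EFF cells (2.48 to 3.64, the exact 95% binomial interval, which covers counting error alone). It was found in 14.9% of T cell MEM (12.9 to 17.1) and 37.7% of T cell Naive (24.8 to 52.1). In the full counts, where the median cell held 10049, 6280 and 3717 UMIs, the shares came to 10.8%, 31.0% and 70.9%. The share in Stroma was 0.0959% after thinning and 1.46% without, at a median depth of 40692 UMIs.

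*Lef1* (chromosome 3, 131110471 to 131224356, plus strand), which encodes a close relative of TCF-1, was also lowest in T cell EFF, at 9.75, 11.4, 25.4 and 25.8 CPM in M1, M2, M5 and M6. T cell MEM had 35.8, 35.3, 58.9 and 57.7 CPM, above every library of T cell EFF. T cell Naive had 262 CPM pooled (158 to 412 over libraries), again without overlap with another label. Between these ends, *Lef1* did not follow *Tcf7*. NK cells had 71.4 CPM (58.4 to 80.1), which overlapped with the label T cells and with T cell MEM, and ILC had 51.8 CPM (41.7 to 59.4). *Lef1* UMIs per *Tcf7* UMI came to 2.40 in NK cells (1.61 to 2.95 over libraries) and 0.792 in T cell MEM (0.429 to 1.05), which did not overlap, with 1.28 in T cell EFF.

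*Slamf6* (chromosome 1, 171917515 to 171953170, plus strand) encodes the receptor Ly108, a surface marker of stem-like cells, and it was low in effector cells and high in the labels with *Cd4*. T cell EFF had 8.68, 10.5, 25.0 and 27.7 CPM in M1, M2, M5 and M6, and T cell MEM had 54.1, 61.6, 78.8 and 88.9 CPM. Each library of T cell MEM lay above each library of T cell EFF. The label T cells had the highest pooled level, 256 CPM (224 to 408), and NK cells had 11.1 CPM (10.7 to 11.6). Part of this order went with the CD4 lineage. Among T cell EFF cells picked by transcripts, those with *Cd4* and without *Cd8a* or *Cd8b1* (140 cells) had 74.4 CPM of *Slamf6*, against 12.8 CPM in the 3106 CD8 cells, and in T cell MEM the values were 176 and 43.0 CPM. Within CD8 cells alone the 2 labels still did not overlap, with 5.98 to 18.8 CPM over libraries in T cell EFF and 38.9 to 48.0 CPM in T cell MEM. For *Tcf7* the same CD8 cells had 5.27 to 22.5 CPM and 44.7 to 64.6 CPM, also without overlap, while for *Lef1* they had 8.87 to 23.3 CPM and 22.9 to 50.8 CPM, where the ranges touched.

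*Bach2* (chromosome 4, 32238804 to 32586108, plus strand), which encodes a repressor of effector genes, varied less between labels. T cell EFF had 18.6, 15.4, 34.3 and 32.4 CPM in M1, M2, M5 and M6, and T cell MEM had 41.3, 41.7, 38.8 and 33.5 CPM, so the ranges overlapped. T cell Naive had 87.3 CPM pooled from 19 UMIs, with 39.6 to 166 CPM over libraries, and NK cells had the lowest level, 15.9 CPM (14.0 to 17.7). *Bach2* is also known to act in B cells, and these had 163 CPM. *Prdm1* (chromosome 10, 44437177 to 44528501, minus strand), which encodes BLIMP-1, had 11.1, 18.6, 15.0 and 16.7 CPM in T cell EFF and 10.8 CPM in NK cells (9.66 to 14.6). Its highest lymphocyte level was in NKT, 27.8 CPM (18.7 to 32.4), which lay just above the range of T cell EFF. Myeloid cells had 48.7 CPM of *Prdm1* and 5 myeloid markers summed to 513 CPM in T cell EFF and 225 CPM in NKT, and their part in the lymphocyte values was not tested. The ratio of *Bach2* to *Prdm1* UMIs was 4.17 in CD8 cells of T cell MEM (3.06 to 6.14 over libraries) and 2.02 in CD8 cells of T cell EFF (0.929 to 2.87), ranges that did not overlap, though the first rests on 60 *Prdm1* UMIs. Over all cells of these labels the ratio was 2.36 (1.93 to 3.83) and 1.73 (0.828 to 2.28), and the ranges overlapped.

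*Tox* (chromosome 4, 6686353 to 6991557, minus strand), the exhaustion factor, had overlapping levels in all T cell labels. It had 114, 126, 74.1 and 55.8 CPM in T cell EFF of M1, M2, M5 and M6, and 113, 119.6, 88.8 and 73.4 CPM in T cell MEM. The ranges of T cell EFF, T cell MEM, T cell Naive, NKT and the label T cells overlapped from one to the next. ILC had 33.3, 24.3, 23.5 and 21.9 CPM and NK cells 13.4, 11.1, 13.1 and 11.6 CPM, so both lay below all T cell labels except the library of T cell Naive with 0 UMIs in 10 cells, and they did not overlap with each other. After thinning, 18.1% of T cell EFF cells carried a *Tox* UMI (16.9 to 19.4), against 3.08% of NK cells (2.58 to 3.65), 1.73% of Myeloid cells and 0.121% of Stroma. In the full counts, where the median cell held 10049, 5397, 8027 and 40692 UMIs, these were 51.9%, 9.21%, 13.0% and 1.19%. *Tcf7* UMIs per *Tox* UMI were 0.165 in T cell EFF (0.0649 to 0.401 over libraries) and 0.761 in T cell MEM (0.633 to 1.00), which did not overlap, and 2.42 in NK cells (1.68 to 3.45). In the CD8 cells of the same T cell labels the ratio was 0.137 (0.0411 to 0.426) and 0.619 (0.383 to 1.30), and the ranges overlapped.

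Of the T-box factors, *Eomes* but not *Tbx21* separated NK cells from T cell EFF. *Tbx21* (chromosome 11, 97098071 to 97115331, minus strand) had 75.6, 91.3, 61.5 and 56.5 CPM in T cell EFF and 63.1, 56.0, 58.4 and 53.8 CPM in NK cells, so the labels overlapped. ILC (60.8 CPM) and T cell MEM (51.6 CPM) overlapped with both, and the label T cells (7.70 CPM) and T cell Naive (9.19 CPM, from 2 UMIs) were lower. *Eomes* (chromosome 9, 118478212 to 118486132, plus strand) had 304, 325, 282 and 302 CPM in NK cells, and 25.6, 27.8, 41.1 and 29.6 CPM in T cell EFF. ILC lay between them in every library, at 146, 201, 137 and 143 CPM, and T cell MEM (42.2 to 46.0 CPM) lay just above T cell EFF. The order NK cells, ILC, T cell MEM and T cell EFF held without overlap between neighbours. The ratio of *Eomes* to *Tbx21* UMIs can be compared between labels if the capture of each transcript was equal in them, which was not tested. The ratio was 5.22 in NK cells (4.81 to 5.80 over libraries), 2.49 in ILC (2.24 to 2.91), 0.853 in T cell MEM (0.585 to 1.02) and 0.461 in T cell EFF (0.305 to 0.668). Of these the T cell MEM and T cell EFF ranges overlapped. Myeloid cells had 39.2 CPM of *Eomes*, and 5 NK cell markers summed to 286 CPM in them, and whether these counts come from NK cells was not tested.

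**Figure D2:**
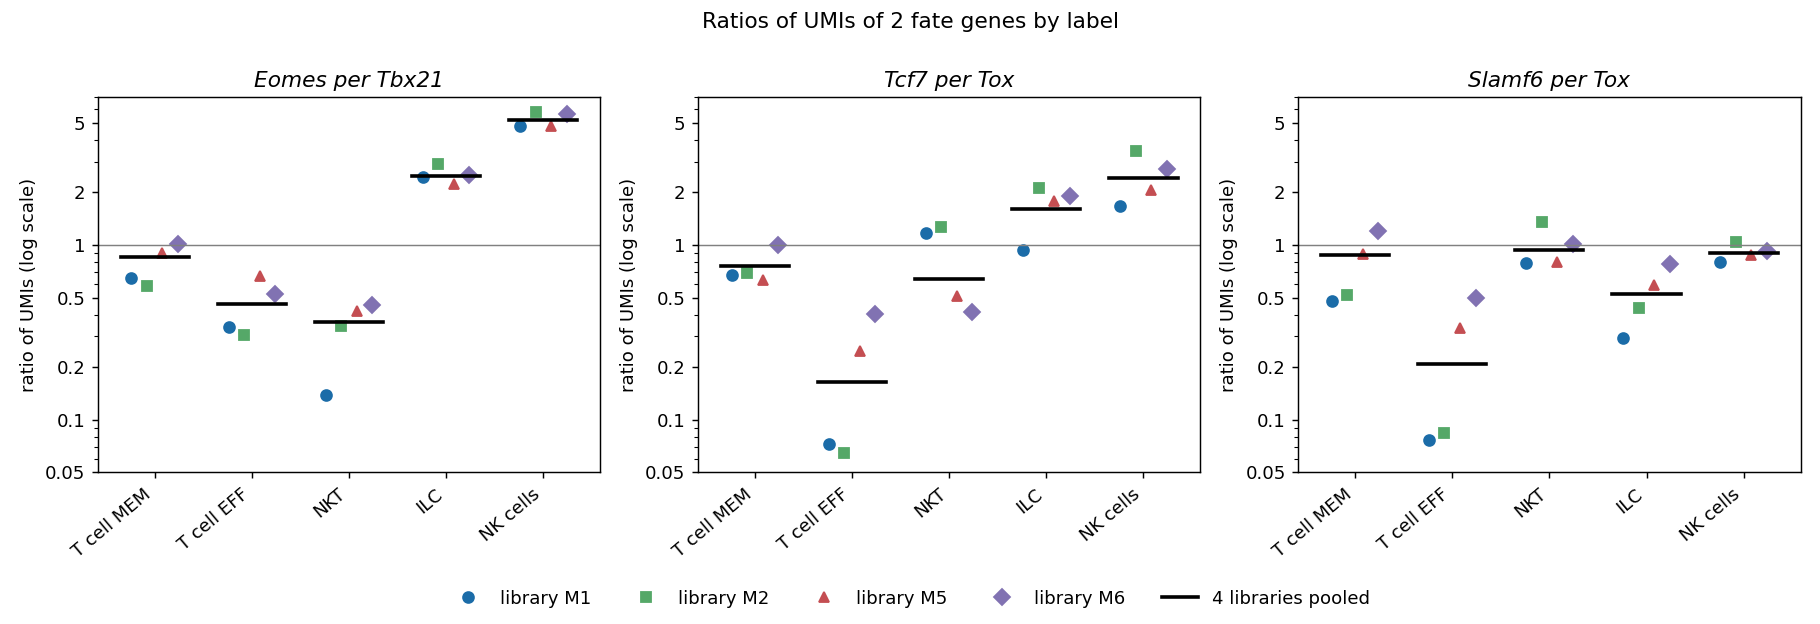
UMIs of the first gene per UMI of the second (log scale, vertical axis) in 5 labels (horizontal axis), with 1 point per library and a black line for the pooled ratio. *Eomes* per *Tbx21* runs from 0.361 in NKT to 5.22 in NK cells, and *Tcf7* per *Tox* and *Slamf6* per *Tox* are lowest in T cell EFF, at 0.165 and 0.209.

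The ID proteins block the DNA binding of E proteins. *Id2* (chromosome 12, 25093799 to 25097140, minus strand) had 660.5, 839.9, 994 and 879.5 CPM in T cell EFF of M1, M2, M5 and M6. ILC (788 CPM), NK cells (771 CPM) and T cell MEM (641 CPM) overlapped with it, and the label T cells (222 CPM, range 136 to 365) and T cell Naive (115 CPM, range 0 to 227) lay below all of these. *Id2* was not particular to lymphocytes, with 715 CPM in Myeloid cells and 747 CPM in DC. *Id3* (chromosome 4, 136143497 to 136145755, plus strand) was low in all lymphocyte labels, at 8.84, 8.16, 9.12 and 9.49 CPM in T cell EFF and 6.04, 3.67, 2.06 and 3.55 CPM in NK cells. It was higher outside them, at 44.6 CPM in Stroma, 54.9 CPM in Myeloid cells and 156 CPM in B cells. After thinning, 1.13% of T cell EFF cells and 0.545% of NK cells carried an *Id3* UMI, against 9.40% of Stroma and 8.95% of Myeloid cells. Without thinning the shares were 6.50%, 2.09%, 46.0% and 24.6%. The part of RNA from these other cells in the lymphocyte values of *Id3* was not tested.

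T cell MEM was set against T cell EFF to ask which of the genes differ between memory-labelled and effector-labelled T cells. A gene is called here where the pooled log2 ratio of CPM + 1 is at least 1 in size and has the same sign in all 4 libraries. Counting intervals of log2 ratios are from the UMIs without the added 1 CPM, so a ratio need not lie at their centre. Of the 10 genes 3 were called, all higher in T cell MEM, beside 8.37% of the 12121 genes with at least 50 UMIs. *Tcf7* was 4.34-fold higher (log2 ratio 2.12, counting interval 2.04 to 2.34, and 1.56 to 3.19 over libraries), *Slamf6* had a log2 ratio of 2.00 (1.62 to 2.51 over libraries) and *Lef1* was 2.73-fold higher (log2 ratio 1.45). *Tox* had a log2 ratio of −0.02, with a counting interval of −0.12 to 0.09 and both signs among the libraries. *Id2* (log2 ratio −0.42) and *Tbx21* (−0.43) were lower in T cell MEM in all 4 libraries and *Eomes* (0.44) and *Bach2* (0.49) higher in all 4, each by less than 2-fold. The median log2 ratio over the 10 genes was 0.44 and over all genes 0.0012.

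**Figure D3:**
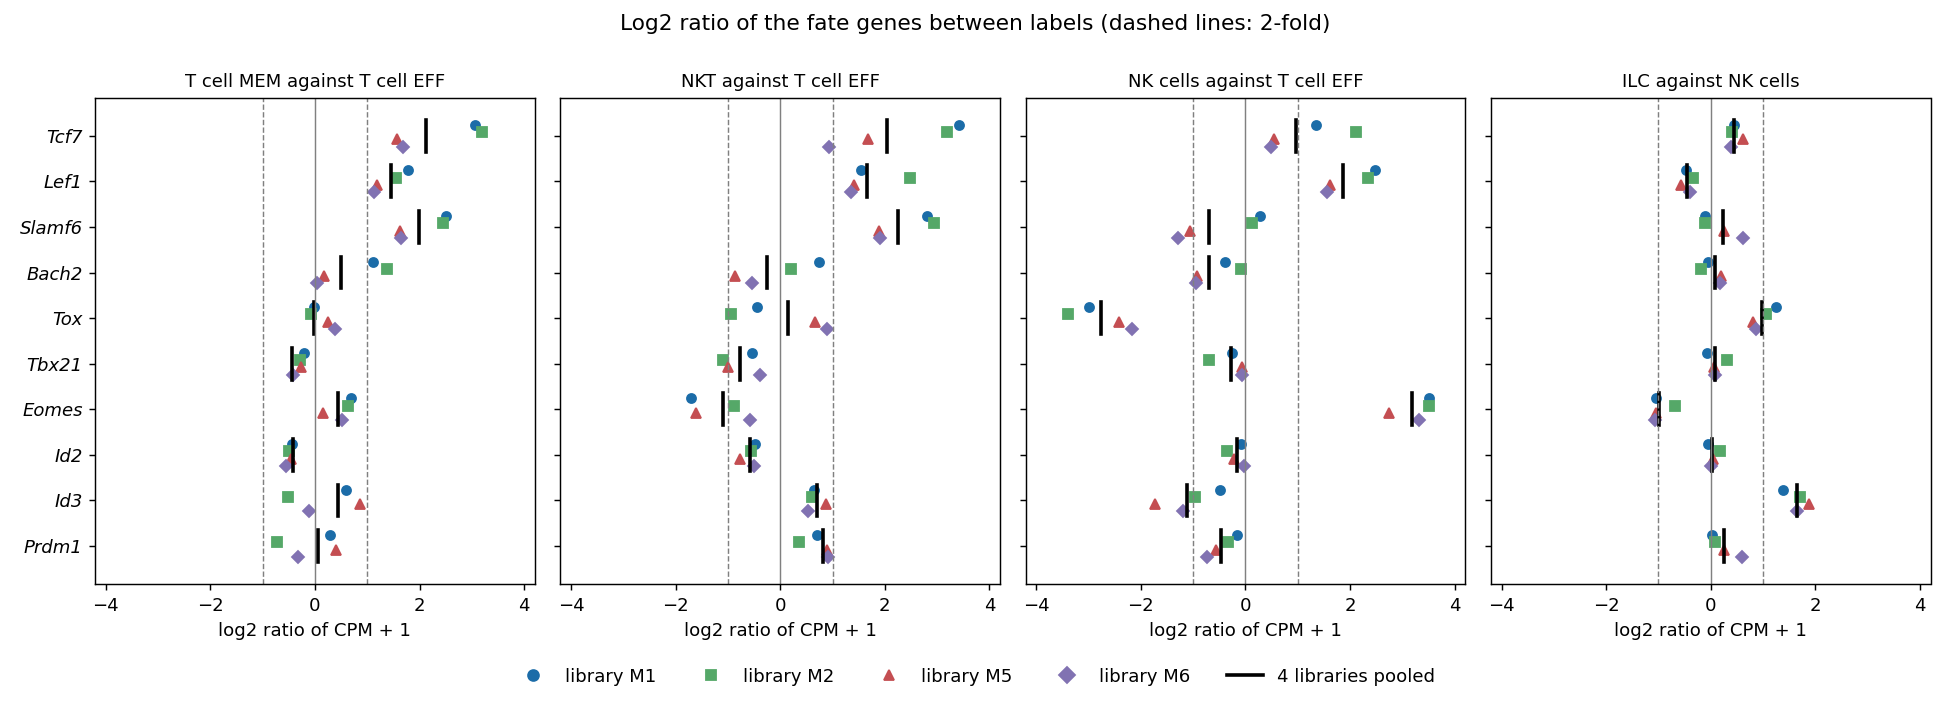
Log2 ratio of CPM + 1 (horizontal axis) of each gene between 2 labels, in 4 comparisons, with 1 point per library, a black line for the libraries pooled and dashed lines at a 2-fold difference. *Tcf7*, *Lef1* and *Slamf6* lie above 0 in all 4 libraries for T cell MEM and for NKT, and for NK cells *Eomes* lies above and *Tox* below 0.

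Over all genes tested, 1.82% were called higher in T cell MEM and 6.55% lower. Of the other lists, 4 of 13 tested naive and memory T cell genes were higher in T cell MEM and 1 lower, the latter a share near that of all genes. *S1pr1*, the receptor for exit from tissue, had 72.1 CPM against 9.32 CPM in T cell EFF. *Xcl1*, a chemokine of activated CD8+ T and NK cells, was the lower one, at 80.6 against 182 CPM. Of 14 effector genes 2 were lower, *Ifng* (109 against 384 CPM) and the chemokine *Ccl4* (284 against 582 CPM), and none was higher. Of 13 exhaustion genes, *Maf* alone was called, higher at 94.6 against 39.3 CPM. Markers of other lineages moved with the labels, *Cd4* at 68.6 CPM in T cell MEM against 18.0 CPM in T cell EFF, the 4 Treg markers at 1071 against 748 CPM and the 5 NK cell markers at 572 against 940 CPM, and their part in these differences was not tested. None of the 7 tested TCF and LEF relatives and corepressors, 4 ID and E proteins or 12 BACH, MAF and AP-1 partners was called, and *Tox2*, *Tox3* and *Tox4* gave 1 tested gene and no call. Among SLAM family genes and adaptors, *Slamf1* was called higher, 1 of 10 tested.

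T cell Naive rested on 55 cells, and 33.3% of genes were called against T cell EFF, 3.49% higher and 29.8% lower, with a median log2 ratio over all genes of −0.36. Of the 10 genes 4 were called lower, a share near that of all genes, and 4 higher, *Tcf7* (21.3-fold), *Lef1* (13.2-fold), *Slamf6* (10.95-fold) and *Bach2* (3.24-fold, counting interval of the log2 ratio 1.00 to 2.38). *Slamf6* had 27.6, 103, 198 and 376 CPM in T cell Naive of M1, M2, M5 and M6, from 1, 5, 10 and 31 UMIs. Its log2 ratio of 3.45 was 2.79 without M6 and 2.83 when thinned to 2000 UMIs, and thinning took that of *Tcf7* from 4.41 to 3.67. *Id2* was called lower, 115 against 859 CPM, which is 7.42-fold. *Tbx21* and *Eomes* were also called lower, from 2 UMIs and 1 UMI, with log2 ratios of −2.80 (counting interval −5.97 to −1.07) and −2.57 (−8.11 to −0.33). *Prdm1* was called lower from 0 UMIs, where 3 UMIs would be 13.8 CPM against 15.2 CPM in T cell EFF, so no difference of *Prdm1* was detectable at this depth. *Tox* was not called, at 78.1 against 89.9 CPM. Beside these, 11 of 14 effector genes and 9 of 13 exhaustion genes were lower and none higher, and 9 of 13 naive and memory T cell genes were higher and 2 lower, the higher ones led by *S1pr1* (368 against 9.32 CPM) and the quiescence factor *Klf2* (1479 against 158 CPM). The limit of 13.8 CPM holds for the lower genes of these lists too. *Cd8a* and *Cd8b1* summed to 45.9 CPM in T cell Naive against 1072 CPM in T cell EFF, and the 5 NK cell markers to 50.5 against 940 CPM. *Cd4* had 221 against 18.0 CPM, and the part of lineage in these differences was not tested.

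In NKT against T cell EFF, 4 of the 10 genes were called, beside 12.2% of all genes tested (4.39% higher and 7.85% lower). *Slamf6* was 4.76-fold higher, *Tcf7* 4.10-fold and *Lef1* 3.15-fold, and *Eomes* was 2.12-fold lower (14.6 against 32.2 CPM). The *Eomes* ratio fell short of 2-fold without library M5 (log2 ratio −0.80), when thinned to 2000 UMIs (−0.97) and with a pseudocount of 5 CPM (−0.92). Cells of this label with and without a *Foxp3* UMI differed in *Tox* and *Tcf7*. The 282 cells with *Foxp3* had 148 CPM of *Tox* and 18.4 CPM of *Tcf7*, and the 499 cells without had 63.5 CPM of *Tox* and 97.3 CPM of *Tcf7*, with no overlap between the libraries of the 2 groups for either gene. *Slamf6* had 125 and 70.2 CPM with overlapping libraries, and *Prdm1* had 43.6 CPM in cells with *Foxp3* (37.6 to 64.5 over libraries) and 16.1 CPM without (10.3 to 18.8). The median depth was 5132 UMIs with *Foxp3* and 3925 without, and a cell without a UMI may still express the gene. Of 14 effector genes 9 were lower in NKT, among them *Prf1* (132 against 790 CPM). The 2 CD8 T cell markers summed to 186 CPM in NKT and 1072 CPM in T cell EFF, and *Cd4* had 145 and 18.0 CPM. The 5 NK cell markers, which include *Prf1*, summed to 217 and 940 CPM. The part of these lineages in the differences in effector genes, *Eomes*, *Slamf6*, *Tcf7* and *Lef1* was not tested. Of 13 exhaustion genes 4 were higher, among them *Maf* (318 against 39.3 CPM) and *Ctla4* (839 against 317 CPM). The 3 lower ones included *Havcr2* (24.1 against 120 CPM) and *Cd160* (23.6 against 66.0 CPM). The 4 Treg markers, which include *Ctla4*, summed to 2527 CPM in NKT and 748 CPM in T cell EFF. Their part in the differences in exhaustion genes was not tested.

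NK cells against T cell EFF asked how the program differs between the 2 cytotoxic labels, and 4 of the 10 genes were called, beside 9.49% of all genes tested (3.32% higher and 6.16% lower). *Eomes* was 9.10-fold higher in NK cells (log2 ratio 3.19, 2.75 to 3.52 over libraries, and 3.98 when thinned to 2000 UMIs) and *Lef1* 3.63-fold higher. *Tox* was 6.83-fold lower (log2 ratio −2.77, −3.39 to −2.18 over libraries), and *Id3* was 2.17-fold lower, from 142 UMIs. The call of *Id3* was lost when cells were thinned to 2000 UMIs (log2 ratio −0.86) and without library M5 (−0.89). It was also lost with the mean of CPM over cells (−0.81) and with a pseudocount of 5 CPM (−0.70). The level of *Id3* in both labels is below the 44.6 CPM of Stroma. *Tbx21* (log2 ratio −0.27), *Id2* (−0.16) and *Prdm1* (−0.46) differed by less than 2-fold. *Slamf6* had a log2 ratio of −0.71 with both signs among the libraries, and *Tcf7*, at 0.96, lay just under 2-fold and passed it without library M5 (1.19) or M6 (1.15). Of 13 exhaustion genes 7 were lower in NK cells and none higher, led by *Pdcd1*, which encodes PD-1 (10.3 against 567 CPM), and of 14 effector genes 4 were higher, led by *Gzma* (15149 against 680.4 CPM), and 4 lower.

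ILC and NK cells were close. Of the 10 genes *Id3* alone was called, 3.15-fold higher in ILC (13.5 against 3.59 CPM), beside 4.13% of all genes tested, with 515 of these higher and 12 lower. *Tox* was 1.98-fold higher and *Eomes* 1.98-fold lower in ILC, each with the same sign in all 4 libraries and just under the 2-fold limit. *Eomes* passed that limit without library M2 (log2 ratio −1.05), and *Tox* without M5 (1.07) or M6 (1.04). Taking only ILC cells without a CD3 UMI (2490 cells) ended the call of *Id3* (log2 ratio 0.74) and left *Tox* at −0.05, and the *Eomes* ratio was −0.81. *Slamf6* and *Prdm1*, not called, then turned from log2 ratios of 0.24 and 0.26 to −0.82 and −0.31. In ILC cells with a CD3 UMI, *Tox* had 45.0, 33.1, 30.3 and 29.8 CPM, and in those without it had 14.0, 12.8, 13.1 and 8.14 CPM, with no overlap. The median depth was 13329 UMIs with a CD3 UMI and 7659.5 without, NK cells were not filtered for CD3, and the part of depth was not tested. The 5 myeloid markers summed to 777 CPM in ILC and 207 CPM in NK cells, and their part in the difference in *Id3* was not tested. Of the other lists, 3 of 14 exhaustion genes were higher in ILC, among them *Pdcd1* (87.6 against 10.3 CPM), and 4 of 14 naive and memory T cell genes, among them *Il7r*, the interleukin 7 receptor (84.9 against 9.76 CPM). Of 14 effector genes 2 were higher and 1, *Ccl5*, lower (1163 against 3096 CPM). These lists were not recomputed in ILC cells without a CD3 UMI. T cell EFF had 567 CPM of *Pdcd1* and 151 CPM of *Il7r*, and the part of T cell transcripts was not tested.

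To ask which of the genes are found in the same CD8+ T cells, cells of any label were taken that had *Cd8a* or *Cd8b1*, had *Cd3d*, *Cd3e* or *Cd3g*, and lacked *Cd4*. They were thinned to 2000 UMIs, which left 5099 cells, and split by a *Tcf7* UMI. The 239 cells with *Tcf7* numbered 37, 49, 68 and 85 in M1, M2, M5 and M6, and 3 of the other 9 genes were called, beside 5.91% of all genes tested. *Slamf6* had 85.8 CPM in cells with *Tcf7* and 17.0 CPM in cells without (log2 ratio 2.27, counting interval 1.81 to 2.84). *Lef1* had 69.0 against 22.7 CPM (log2 ratio 1.56, counting interval 1.03 to 2.13). *Tbx21* had 33.5 against 79.3 CPM (log2 ratio −1.22, counting interval −2.06 to −0.54), but at thinning depths of 1000 and 4000 UMIs its ratio was −0.27 and −0.44. *Id2* was lower in cells with *Tcf7* in all 4 libraries (log2 ratio −0.82), and in the CD8 cells labelled T cell EFF its ratio was −1.14. *Prdm1* rested on 5 UMIs in cells with *Tcf7* (log2 ratio −0.73, counting interval −2.42 to 0.47), and its ratio was −1.33 in those T cell EFF cells and −3.85 and −1.21 at 1000 and 4000 UMIs, so no size is read from it. *Eomes* had a log2 ratio of 1.01 with the opposite sign in M1. *Tox* had 64.9 against 85.6 CPM with both signs among the libraries, so no difference was resolved. Without library M1, 5 genes were called, with *Eomes* and *Id3* added, the latter from 1 UMI in the cells with *Tcf7*.

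The cells with *Tcf7* also had more *S1pr1* (60.7 against 11.5 CPM), among 5 of 13 naive and memory T cell genes called higher and none lower, where 1.30% of all genes tested were higher and 4.61% lower. The cytotoxic genes *Gzmb* (1052 against 2495 CPM) and *Prf1* (322 against 808 CPM) were the 2 of 14 effector genes called, both lower. Of 13 exhaustion genes 4 were called lower, among them *Havcr2*, which encodes TIM-3 (29.3 against 113 CPM). Another of the 4, *Tigit*, had 0 against 5.97 CPM, where 3 UMIs in the cells with *Tcf7* would be 6.28 CPM, so no difference of *Tigit* was detectable at this depth. The 5 NK cell markers, which include *Prf1*, summed to 502 CPM in cells with *Tcf7* and 1012 CPM in cells without, and the 5 T cell markers to 4318 and 5624 CPM. The 4 stroma markers summed to 128 CPM in cells with *Tcf7* and 210 CPM in cells without.

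The same CD8+ T cells were split by a *Tox* UMI into 733 cells with and 4366 without. None of the other 9 genes was called, beside 3.59% of all genes tested (0.149% higher and 3.44% lower). *Lef1* came nearest, with 13.6 CPM in cells with *Tox* and 26.8 CPM without (log2 ratio −0.92, lower in all 4 libraries), and it passed the 2-fold limit without library M2 and without cells of high doublet score (−1.02). *Tbx21* was higher in cells with *Tox* in all 4 libraries (102 against 73.0 CPM, log2 ratio 0.48). *Slamf6* (20.5 against 20.2 CPM), *Bach2* (30.7 against 30.5 CPM) and *Eomes* (39.6 against 41.1 CPM) had log2 counting intervals of −0.59 to 0.59, −0.48 to 0.47 and −0.48 to 0.35. No gene of the effector or exhaustion lists was called. The 5 T cell markers summed to 6612 CPM with *Tox* and 5386 CPM without, and the 5 myeloid markers to 420.2 and 906 CPM. The part of this difference in make-up in these values was not tested.

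**Figure D4:**
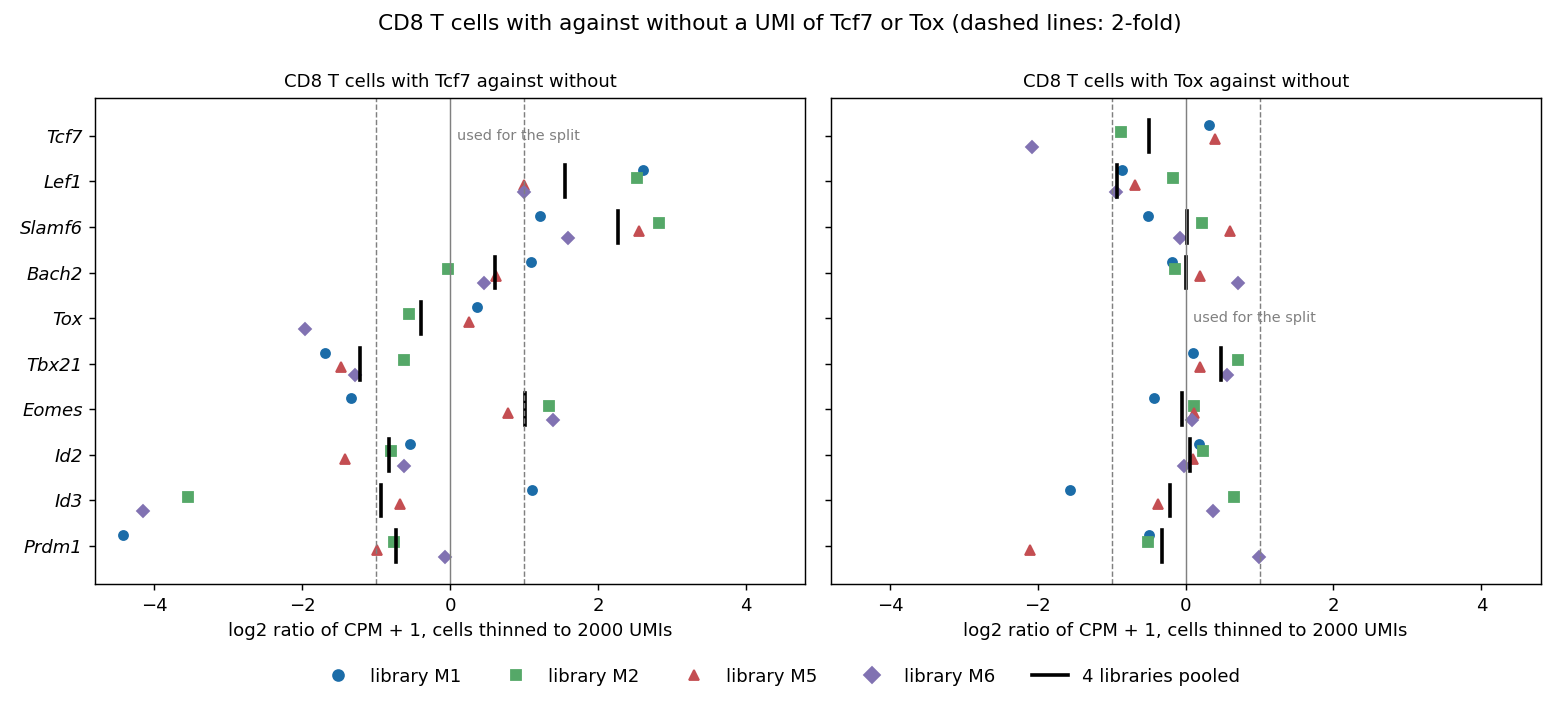
Log2 ratio of CPM + 1 (horizontal axis) between cells with and without a UMI of *Tcf7* (left) or *Tox* (right). The cells are CD8+ T cells of any label picked by transcripts and thinned to 2000 UMIs. Each library has 1 point, a black line gives the libraries pooled and dashed lines mark a 2-fold difference. *Slamf6* and *Lef1* lie at 2.27 and 1.56 in the *Tcf7* split and at 0.02 and −0.92 in the *Tox* split.

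NK cells were split by an *Eomes* UMI, 2087 with and 2131 without after thinning. None of the 8 other genes that could be tested was called, beside 0.291% of all genes tested. *Tox* had 21.3 CPM with *Eomes* and 11.5 CPM without (log2 ratio 0.84, higher in all 4 libraries), and without library M5 its log2 ratio was 1.09, but thinned to 1000 UMIs it was 0.04. *Bach2* had 29.2 against 18.3 CPM (log2 ratio 0.65, higher in all 4 libraries). *Tbx21* (69.7 against 64.1 CPM) and *Id2* (797 against 769 CPM) had log2 counting intervals of −0.12 to 0.37 and −0.02 to 0.12. Of the other lists, 1 gene was called, the inhibitory receptor *Ctla4*, at 42.9 CPM with *Eomes* against 96.0 CPM without, among 11 exhaustion genes. The 4 Treg markers, which include *Ctla4*, summed to 161 CPM with *Eomes* and 232 CPM without. The 5 T cell markers summed to 388 and 436 CPM, the 5 NK cell markers to 2442 and 2855 CPM and the 5 myeloid markers to 217 and 201 CPM. The part of these lineages in the difference in *Ctla4* was not tested.

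Pairs of the genes in the same cell were counted in thinned cells as the number of cells with both, over the number that the product of the 2 shares gives, taken within each library and summed over the libraries. In T cell EFF, 22 pairs had a product of at least 10 cells, and 4 of them lay below 1 in all 4 libraries and none above, where 7.47% of all gene pairs of that minimum lay below and 7.53% above. *Tcf7* and *Tbx21* were found together in 7 cells against 14.3 (ratio 0.49), *Tcf7* and *Id2* in 49 against 76.8 (0.64), *Tox* and *Prdm1* in 15 against 24.6 (0.61) and *Tox* and *Tcf7* in 10 against 16.5 (0.61, with no such cell in M6). Pairs were counted only at the thinning depth of the splits, and their dependence on depth was not tested. In the *Tcf7* split of CD8+ T cells, the *Tbx21* log2 ratio of −1.22 became −0.27 and −0.44 at 1000 and 4000 UMIs. In the *Tox* split, that of *Prdm1* went from −0.33 to 0.28 at 4000 UMIs. In T cell MEM, 6 of 22 pairs lay below 1 in all libraries and 1 above, where 6.41% of all gene pairs lay below and 7.10% above. The 1 above, a share no higher than that of all pairs, was *Tcf7* with *Slamf6*, in 42 cells against 23.5 (1.79, range 1.16 to 2.81). *Tbx21* with *Slamf6* had the lowest ratio there, 6 cells against 15.0 (0.40). *Tcf7* with *Id2* was below 1 in every library of all 4 labels examined, at 0.64 in T cell EFF, 0.63 in T cell MEM, 0.80 in NK cells and 0.80 in ILC.

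In NK cells 4 of 29 pairs lay above 1 in all 4 libraries and 2 below, and in ILC 6 of 32 above and 4 below. Over all gene pairs 8.33% lay above and 7.44% below in NK cells, and 7.96% and 7.21% in ILC, so the 2 pairs below 1 in NK cells are a share near that of all pairs. *Eomes* with *Bach2* was above 1 in both labels (1.24 in NK cells and 1.25 in ILC). *Tox* with *Eomes* went in opposite directions, above 1 in NK cells (83 cells against 63.9, ratio 1.30) and below 1 in ILC (42 against 55.5, ratio 0.76), and *Tbx21* with *Eomes* did the same (1.06 and 0.83). This difference between the labels was not tested. The NK cell ratio of *Tox* with *Eomes* comes from the same thinned cells as the split by *Eomes* and is not separate evidence. In that split the log2 ratio of *Tox* was 0.84, but 0.04 when thinned to 1000 UMIs. CD4 and CD8 cells share the T cell labels and differed in *Slamf6* and *Tbx21* (13.3 CPM of *Tbx21* in CD4 and 75.3 CPM in CD8 cells of T cell EFF), and the part of this mixture in the ratios was not tested.

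**Figure D5:**
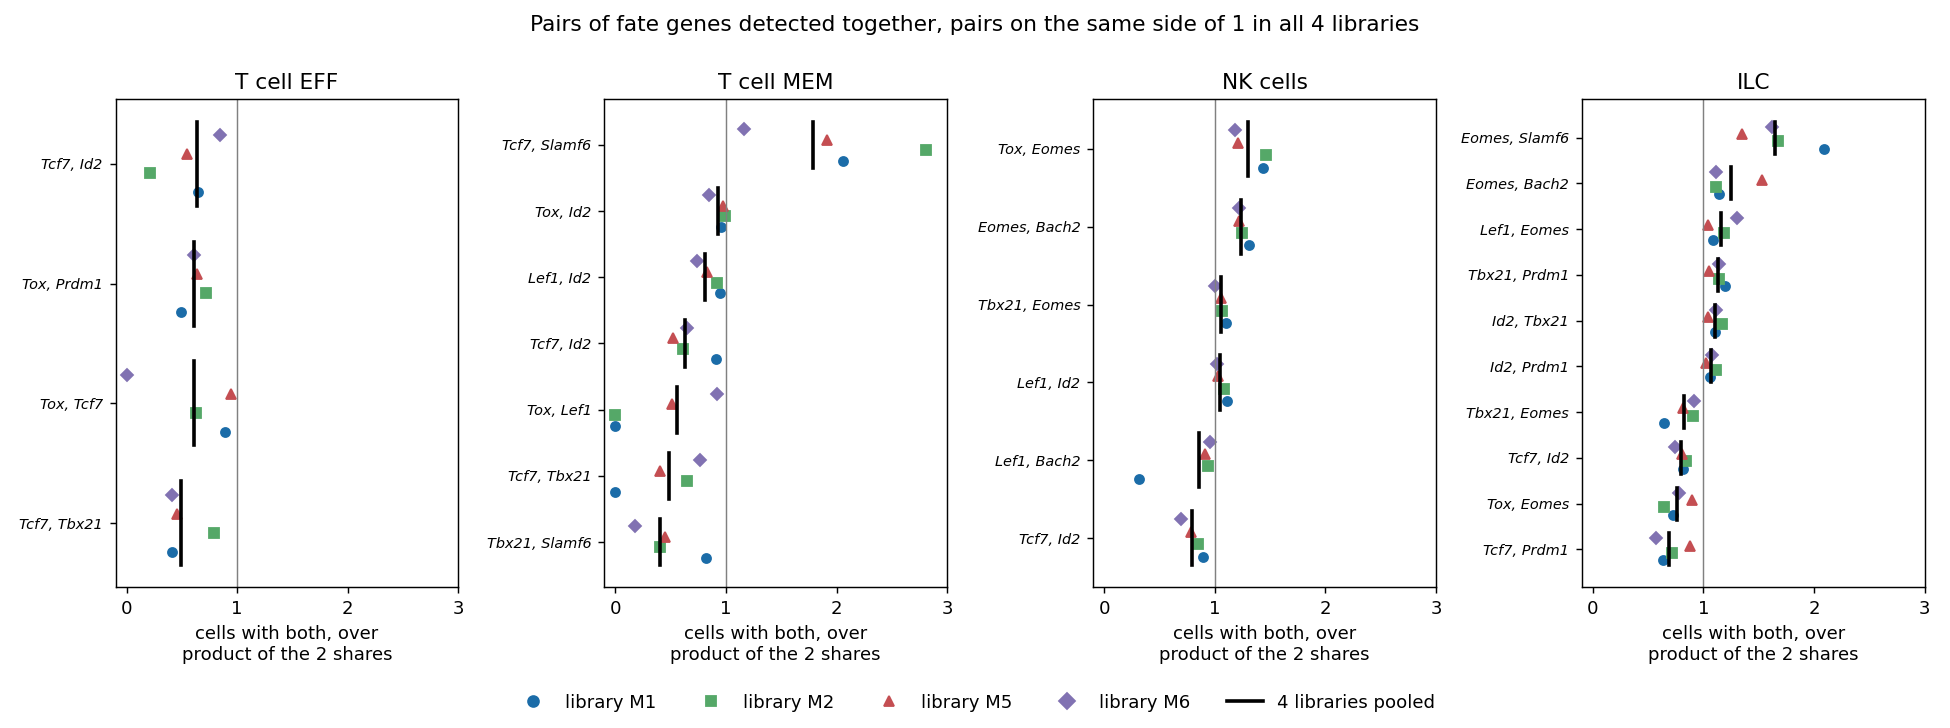
Number of thinned cells with UMIs of both genes over the number given by the product of their shares (horizontal axis), for the pairs on the same side of 1 in all 4 libraries, with 1 point per library and a black line for the libraries pooled. *Tcf7* with *Id2* lies below 1 in each of the 4 labels, and *Tcf7* with *Slamf6* in T cell MEM lies at 1.79.

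The genes most like each of the 10 were sought by Pearson correlation of log2(CPM + 1) over 23 sums per label and library with at least 20 cells, among 8804 genes. The sums share libraries, labels and depth, and the values are descriptions. *Tbx21* was most like *Klrd1* (r = 0.97), *Cst7* and *Sema4c*, and *Eomes* most like *Styk1* (0.97), *P2ry14* and *Klri2*. *Slamf6* was most like *Ets1* (0.98), *Stat5b* and *Frat2*, *Tcf7* most like *Ikbkb* (0.93), *Skap1* and *Socs3*, and *Lef1* most like *Tspan13* (0.97), *Sipa1l1* and *Ppp1r13b*. *Tox* was most like *Fam169b* (0.97), *Gm8369* and *Dpp4*, and *Id2* most like *Srxn1* (0.95), *Trim36* and *Il12rb2*. *Id3* was most like the myeloid-expressed *Cebpb* (0.86), *Nampt* and *Zswim4*, *Bach2* most like *Orai2* (0.88), *Zfp773* and *Jtb*, and *Prdm1* most like *AI987944* (0.95), *Mms19* and *Atxn3*. Among the 10 genes, the highest r was that of *Id2* with *Tbx21* (0.85), followed by *Tcf7* with *Slamf6* (0.80), and the lowest that of *Eomes* with *Slamf6* (−0.82), followed by *Tox* with *Eomes* (−0.81).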

How the data were processed

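Single cells were profiled with 10x 3′ V3 chemistry. Per the labels and the study's methods, the authors used Cell Ranger 3.0.2 with the mm10 genome, kept cells with over 500 UMIs, and labelled cells by correlation with ImmGen profiles. The deposited table holds raw UMI counts of 31053 genes in 33961 cells, with a library name and a label per cell. Library names match none of the 6 samples, so the planned edgeR comparison of treatments was not run, libraries were kept apart, and no p-values were computed.

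Counts were summed per label and scaled to CPM. A gene with at least 50 UMIs was called where log2 of the ratio of CPM + 1 was at least 1 in size with the same sign in all 4 libraries. Cells were thinned without replacement to 2000 UMIs for shares, splits and pairs, and shallower cells were left out. Intervals are exact 95% intervals and, like the floor of 3 UMIs for a count of 0, cover counting error only. Those of log2 ratios were computed without the added 1 CPM. Doublets were scored with scrublet (expected rate 0.06) and kept, since 606 cells (1.78%) scored over 0.25, and an alternative left them out. The calls were tried on simulated counts, and thinned shares of T cell EFF cells were checked against their exact expectation. The simulated counts held counting error only, so they do not give the rate of false calls in these data. Alternatives were edgeR 4.0.16 TMM factors, a pseudocount of 5 CPM, the mean of CPM over cells, no count filter, other thinning depths, cell filters and leaving out each library. Python 3.11.15, numpy 2.4.6, scipy 1.17.1, pandas 2.3.3, scanpy 1.11.5 and R 4.3.3 were used.

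The 10 genes, the other gene lists and the comparisons were chosen with earlier results of these data known. Of each list, the 2 called genes with the largest log2 ratio in each direction could be named, and for each of the 10 genes the 3 most alike, among genes with at least 10 CPM in a label. A gene of these lists is not reported here.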

Additional observations from a re-analysis of the deposited data

How the results depend on the processing

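The number of the 10 genes called changed by no more than 1.5 times in the comparisons of T cell MEM, T cell Naive, NKT and NK cells with T cell EFF under the alternatives tried. A stable number does not mean that the same genes passed 2-fold. In NKT against T cell EFF, *Id3* moved from a log2 ratio of 0.70 to 1.39 when thinned to 2000 UMIs and 1.16 with the mean of CPM over cells. *Eomes* was at −0.97 when thinned. For ILC against NK cells, where 1 gene was called, 2 were called with the mean of CPM over cells and when thinned to 2000 UMIs (*Eomes* added), 2 without cells of high doublet score (*Tox* added), 0 in ILC cells without a CD3 UMI, and 1 to 2 when each library was left out, with 2 without M2, M5 or M6. In CD8+ T cells split by *Tcf7*, where 3 genes were called, leaving out each library gave 3 to 5, with 5 without M1. In those split by *Tox*, where 0 were called, 1 was called without cells of high doublet score and 0 to 1 when each library was left out, with 1 without M2. In NK cells split by *Eomes*, where 0 were called, leaving out each library gave 0 to 1, with 1 without M5. The causes were not tested. All 258 recomputed values of the 23 called log2 ratios kept their sign, as did 547 of 600 for the 54 others. A call needs a 2-fold pooled ratio with the same sign in each library, so leaving out a library or changing the pseudocount could hardly turn it. The difference between called and other ratios is therefore not read as a result. Thinning to 1000 or 4000 UMIs and no thinning moved 56, 59 and 61 of 70 detected shares outside their counting intervals, since a share of cells with a UMI rises with depth.

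No paired analysis was possible because replicate numbers stand only in the sample labels, and none of these could be tied to a library. T cell Naive (55 cells) and the label T cells (203 cells) limit every value given for them. Transcripts were counted at their 3′ ends without scaling to length, so levels were compared between cells and not between genes. In summed counts of a label, fewer expressing cells and less RNA per cell cannot be told apart.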

Other observations

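Outside the 7 lymphocyte labels, *Bach2*, *Id3* and *Prdm1* had pooled levels above those of all 7. B cells (124 cells) had 163 CPM of *Bach2* and 156 CPM of *Id3*, and no *Tox* UMI. *Slamf6* had 106 CPM in B cells, below the 256 CPM of the label T cells. DC and Myeloid cells had 747 and 715 CPM of *Id2*, close to the 771 CPM of NK cells, and Stroma had 36.1 CPM. *Prdm1* had 48.7 CPM in Myeloid cells, above the 27.8 CPM of NKT, its highest pooled level in a lymphocyte label.

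Within T cell EFF the libraries had unlike values of several genes. *Tox* had 114 and 126 CPM in M1 and M2, and 74.1 and 55.8 CPM in M5 and M6. *Tcf7* had 8.27, 8.16, 18.3 and 22.4 CPM in M1, M2, M5 and M6, *Lef1* 9.75, 11.4, 25.4 and 25.8 CPM, *Bach2* 18.6, 15.4, 34.3 and 32.4 CPM and *Slamf6* 8.68, 10.5, 25.0 and 27.7 CPM. Of CD8+ T cells of any label picked by transcripts and thinned, 19.7%, 19.1%, 10.8% and 8.49% carried a *Tox* UMI, and 3.07%, 4.01%, 4.59% and 7.14% a *Tcf7* UMI. The share of Stroma among all cells was 61.2%, 57.1%, 27.2% and 30.9% in the same libraries, and the median depth of T cell EFF cells was 10423, 9005, 10781 and 9636 UMIs. The libraries have no known treatment here, no difference between them was tested, and the part of tissue make-up in it was not tested.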
